A study of Mus musculus with 8 samples.

Results

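Long noncoding RNAs of the nucleus and the spliced transcripts that carry small nucleolar RNAs (snoRNAs) in their introns were followed in mouse retinal organoids after acute loss of METTL3, which places N6-methyladenosine (m6A) marks in RNA. The set comprises 9 genes: Malat1, Neat1, Gas5, Snhg1, Snhg3, Snhg5, Snhg6, Snhg8 and Snhg12. Members were taken as rows that carry one of these names, and 4 of the 9 had such a row in every table (Malat1, Neat1, Snhg6 and Snhg12), out of 29066 distinct single gene names. No row of the tables used here carried the other 5 names. Their genomic positions were covered by loci without a name or under a neighbour's name, and these loci are described separately and not counted as members.

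The organoids were at day 6 of differentiation and came from an Rx:GFP line in which both endogenous Mettl3 alleles end in an FKBP12F36V-HA tag at the C-terminus. The 8 samples formed 4 groups of 2 replicates: untreated (0 h) and 1, 8 or 24 h of dTAG-13 at 125 nM, a compound that sends the tagged protein to degradation. All groups carry the tag, and no group without the tag and no solvent control is named in the labels, so effects of the compound itself cannot be told apart from loss of METTL3. RNA was selected for poly(A). In the deposited tables both replicates of a condition are already merged into 1 column, which leaves neither a mean ± SD nor a test across replicates.

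Malat1 and Neat1 are retained in the nucleus. Malat1 associates with nuclear speckles, bodies rich in splicing factors, and Neat1 is the scaffold of paraspeckles, which form only on its long isoform. The mature 3′ ends of Malat1 and of long Neat1 are made by RNase P cleavage and are protected by a triple helix of U-rich stretches and a genome-encoded A-rich tract, whereas short Neat1 is polyadenylated at an upstream signal. The snoRNA host genes are known differently: their introns release box C/D or H/ACA snoRNAs that guide modification of ribosomal RNA. The spliced exons are exported, and many carry a 5′ terminal oligopyrimidine start and are degraded by nonsense-mediated decay. Malat1 is among the nuclear transcripts in which m6A sites have been mapped.

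The ends of the nuclear transcripts are shown because poly(A) selection captures RNA by its A-rich 3′ end. In the lines below, from GENCODE M21 (GRCm38, minus strand), capitals mark runs of at least 4 T and the A-rich tract at the 2 triple helix ends, and the polyadenylation signal AATAAA at the 2 others.
Long Neat1, chr19:5824708-5824807: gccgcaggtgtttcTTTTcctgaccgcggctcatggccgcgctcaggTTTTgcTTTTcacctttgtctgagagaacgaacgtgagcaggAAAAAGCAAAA
Malat1 at its A-rich tract, chr19:5795982-5796081: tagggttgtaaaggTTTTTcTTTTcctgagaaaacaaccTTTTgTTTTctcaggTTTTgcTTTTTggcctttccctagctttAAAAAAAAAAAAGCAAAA
Short Neat1, chr19:5842307-5842366: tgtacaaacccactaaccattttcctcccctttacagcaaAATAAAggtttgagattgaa
Malat1 at its annotated end, chr19:5795690-5795749: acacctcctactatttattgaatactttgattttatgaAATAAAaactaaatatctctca
Both triple helix ends close on the same letters, GCAAAA, after a run of A. The annotated Malat1 transcript runs past that tract to a later AATAAA. The tables give 1 value for all transcripts of a gene, so the forms of Neat1 or Malat1 were not separated here.

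Totals per condition lay between 31361518 and 32562075 estimated counts, on the authors' scaled scale, so they do not give the depth of the libraries. Levels are given as FPKM, fragments scaled to transcript length and to the mapped total, with the interval deposited beside each value. A locus was tested at 1 FPKM or more in either condition, and called higher or lower when its deposited intervals lay apart and the ratio of FPKM + 0.1 was 1.5-fold or more. Standard errors (SE) of log2 ratios come from the deposited count variances, with the conditions taken as independent. The Mettl3 transcript itself had log2 ratios of -0.01, 0.00 and -0.19 (SE 0.48, 0.42 and 0.43) at 1, 8 and 24 h, which does not bear on the protein. Retinal progenitor markers were present at 0 h, all 8 at 18.1 to 142 FPKM in the 8 h table. There, 3 of 3 neural crest markers and 5 of 6 mesoderm and endoderm markers were under 1 FPKM at 0 h. Pou4f2 of retinal ganglion cells and Tyr of pigment cells were listed at 0, although Mitf, Pmel and Dct of the pigment lineage had 11.5 to 28.8 FPKM. All 5 pluripotency markers were detected, at 9.25 to 200 FPKM.

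Neat1 fell after 8 h of dTAG-13, and among the 4 named members it alone was called at any time. Untreated organoids held 3.81 FPKM (interval 2.82 to 4.81) and those at 8 h held 1.90 (1.35 to 2.45), from 430 and 236 estimated counts. The 2 intervals were apart, and the fall of 0.97 on the log2 scale (SE 0.25) amounts to a 1.96-fold lower level. At 24 h Neat1 stood at 2.23 FPKM (1.60 to 2.87), against 3.83 (2.83 to 4.82) at 0 h in that table, and the intervals overlapped by 0.0384 FPKM. Its log2 ratio at 24 h was -0.75 (SE 0.24), from 426 and 265 estimated counts, and it was not called.

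Already at 1 h the Neat1 value was below that of untreated organoids. It was 2.40 FPKM (1.66 to 3.15) at 1 h against 3.77 (2.71 to 4.82) at 0 h, a log2 ratio of -0.63 (SE 0.26), with overlapping intervals. Estimated counts gave log2 ratios of -0.60, -0.86 and -0.68 at 1, 8 and 24 h, so the direction was the same in both quantities. Among all tested loci the Neat1 ratio lay at the 2.29th, 1.74th and 4.34th percentile. The 3 comparisons use the same 0 h libraries, so these values are not independent of each other.

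The background for these calls differed between times. Of all tested loci, 0.402% were called at 1 h, 4.43% at 8 h and 5.48% at 24 h. Calls of lower levels made up 0.285%, 0.940% and 1.65% at these times, and calls of higher levels 0.117%, 3.49% and 3.83%. Of the 4 named members, 0, 1 and 0 were called at 1, 8 and 24 h, and with 4 members a count of 1 cannot be set apart from these shares. Their median log2 ratios were 0.06, 0.11 and 0.00, beside 0.01, 0.01 and 0.02 over all tested loci.

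Malat1, the neighbour of Neat1 at a distance of 22035 bases on chromosome 19, had nearly equal values in all conditions. In the 1 h table it had 147 FPKM (60.3 to 234) untreated and 144 (65.5 to 222) treated, in the 8 h table it was 149 (61.3 to 237) and 139 (61.8 to 217), and in the 24 h table it was 149 (59.2 to 240) and 147 (59.9 to 233). The log2 ratios were -0.03, -0.10 and -0.03, each with an SE of 0.19 to 0.21. The deposited FPKM intervals of Malat1 are wide, although the coefficient of variation of its estimated counts (17515 at 0 h in the 8 h table) was 9.44%. A change smaller than these intervals was not detectable. Malat1 and Neat1 were set against each other in no test, since both ratios rest on pooled columns.

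**Figure D1:**
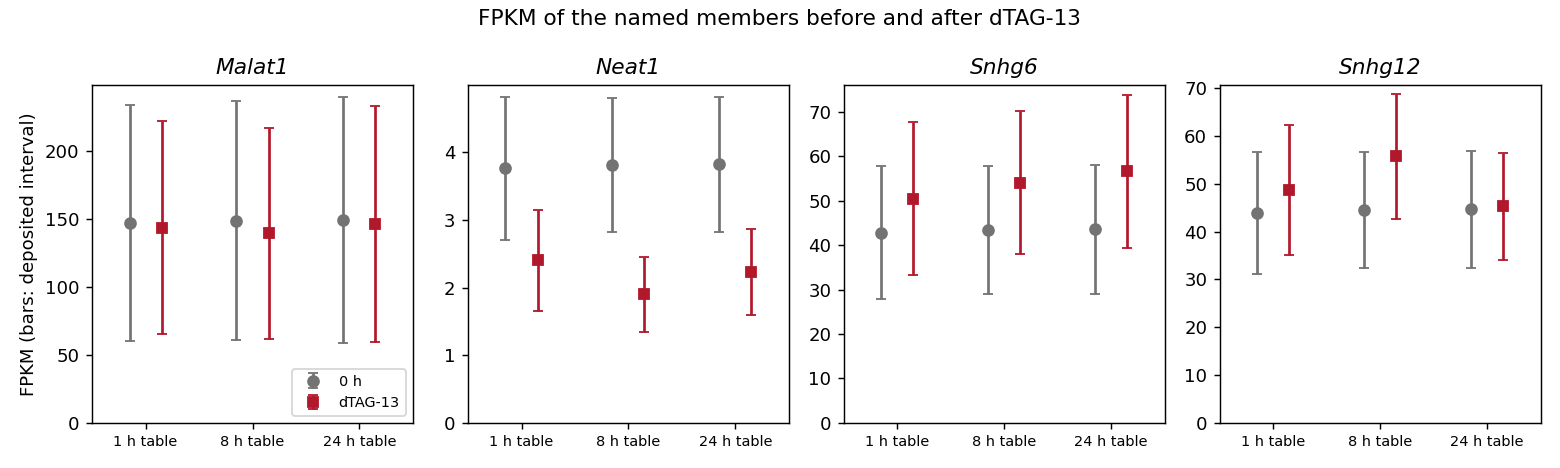
FPKM (vertical axes, each from 0) of the 4 named members in the 3 tables, with grey circles for 0 h, red squares for dTAG-13 and bars for the deposited interval. Neat1 falls from 3.81 to 1.90 in the 8 h table with intervals apart, and the intervals of Malat1, Snhg6 and Snhg12 overlap in every table.

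In level per length, Malat1 was the most abundant named member and Neat1 the least at 0 h. In the 8 h table the order was Malat1 at 149 FPKM, Snhg12 at 44.5, Snhg6 at 43.4 and Neat1 at 3.81. Snhg12 and Snhg6 did not differ beyond their intervals, of 32.3 to 56.6 and 29.1 to 57.7 FPKM. The interval of Malat1 lay above both, and that of Neat1 below both. The 0 h values of each named member lay within 1.02-fold between the 3 tables. These values come from the same 0 h libraries, so their closeness does not measure variation between samples.

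Snhg6, which carries Snord87, had FPKM above its untreated value at each time, with overlapping intervals. In the 1 h table it had 42.8 FPKM (27.9 to 57.8) untreated and 50.5 (33.3 to 67.7) treated, in the 8 h table it was 43.4 (29.1 to 57.7) and 54.1 (38.1 to 70.1), and in the 24 h table it was 43.6 (29.1 to 58.0) and 56.6 (39.4 to 73.8). These give log2 ratios of 0.24, 0.32 and 0.38 (SE 0.23, 0.21 and 0.22). The estimated counts of Snhg6 in the 24 h table were 955 untreated and 950 treated, a log2 ratio of -0.01. The FPKM ratio at 24 h is therefore not seen in counts. Its locus in the tables also spans Mcmdc2 on the other strand.

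Snhg12, host of Snora16a, Snora44, Snora61 and Snord99, parted in the same way. In the 1 h table it had 43.9 FPKM (31.1 to 56.7) untreated and 48.6 (35.1 to 62.2) treated, in the 8 h table it was 44.5 (32.3 to 56.6) and 55.7 (42.6 to 68.8), and in the 24 h table it was 44.6 (32.4 to 56.9) and 45.3 (34.1 to 56.5). The log2 ratios were 0.15, 0.32 and 0.02 in FPKM (SE 0.23, 0.21 and 0.22), with overlapping intervals, and 0.15, 0.15 and -0.25 in estimated counts. FPKM divides the counts given to each transcript by its length, so the 2 quantities part where the transcripts assigned to a gene shift in length. Relative to all tested loci, the estimated count per FPKM shifted by -0.38 (log2) for Snhg6 and by -0.26 for Snhg12 at 24 h, and by -0.02 for Malat1. Transcript tables were not used here, and a change in isoforms was not tested.

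The other 5 genes have no named row. All 4 named members are annotated by GENCODE M21 as lincRNA, and the 5 others as processed_transcript. Of 782 processed_transcript genes with a unique name, 8 (1.02%) were named in all 3 tables, against 5044 of 5832 lincRNA genes (86.5%). The presence of a name thus went with the annotation class. At the positions of Gas5, Snhg5 and Snhg8 each table holds an unnamed locus within 100 bases of the annotated gene, and at that of Snhg1 the 8 and 24 h tables do. Snhg3 lies inside a locus named Rcc1, and in the 1 h table Snhg1 lies inside the span of 2 loci named Slc3a2, whose values cannot be assigned to it.

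At 0 h the unnamed locus with the most counts at each position had 70.0 to 136 FPKM over the 3 tables. The locus at Snhg5 (chromosome 9, gene at 88521050 to 88522929), host of Snord50a and Snord50b, had at 8 h the highest log2 ratio of the member host loci. It was 73.2 FPKM (58.7 to 87.7) at 0 h and 102 (81.8 to 122) at 8 h, a log2 ratio of 0.47 (SE 0.20), with intervals that overlapped by 5.88 FPKM. At 1 h it had 73.0 FPKM (57.3 to 88.7) against 72.6 at 0 h, and at 24 h 83.9 (67.0 to 101) against 73.4. The values at 1 and 24 h lay closer to the untreated value.

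The locus at Snhg1 (chromosome 19, 8723475 to 8726443), a gene with 8 annotated snoRNA genes including Snord22, had 136 FPKM (107 to 165) untreated and 184 (146 to 223) after 8 h, a log2 ratio of 0.44 (SE 0.20). At 24 h it had 160 FPKM (126 to 194), a log2 ratio of 0.23 (SE 0.20). The intervals overlapped at both times. In the 1 h table the loci named Slc3a2 over this span went from 4917 to 4443 and from 1354 to 1594 estimated counts.

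The locus at Gas5 (chromosome 1, 161034422 to 161038539), with 10 annotated snoRNA genes such as Snord47 and Snord78, differed in direction between times. Untreated and treated organoids had 70.0 (55.1 to 84.9) and 85.4 FPKM (67.4 to 103) in the 1 h table, 83.8 (66.8 to 101) and 99.4 (80.0 to 119) in the 8 h table, and 84.1 (66.8 to 101) and 74.5 (59.6 to 89.4) in the 24 h table. The log2 ratios were 0.29, 0.25 and -0.17 (SE 0.21, 0.20 and 0.20), none called. The 0 h level of this locus differed 1.20-fold between tables. The 8 and 24 h tables also list a second unnamed locus over the same span. In the 8 h table that second locus had 26.4 estimated counts and 40.5 FPKM (0 to 134) at 0 h. Gas5 also overlaps Zbtb37 on the other strand, and the strand setting of the counting is not given in the sources used here.

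The locus at Snhg8 (chromosome 3, 123507552 to 123508404), host of Snora24, had 130 FPKM (98.3 to 161) untreated and 156 (119 to 193) treated in the 1 h table. Those values were 112 (87.4 to 137) and 145 (114 to 176) in the 8 h table, and 113 (87.3 to 138) and 146 (114 to 178) in the 24 h table. The log2 ratios were 0.27, 0.37 and 0.38 (SE 0.24, 0.22 and 0.23), with overlapping intervals. The Rcc1 locus (chromosome 4) that contains Snhg3, host of Snora73a and Snora73b, had log2 ratios of 0.09, 0.00 and -0.08, which mix Snhg3 with the coding gene Rcc1.

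Set side by side, the host loci leaned above 0 at 8 h. The 6 host loci with values of their own (Snhg6, Snhg12 and the loci at Gas5, Snhg1, Snhg5 and Snhg8) had log2 ratios of 0.25 to 0.47 at 8 h, with a median of 0.35 and all 6 above 0, each with an SE of 0.20 to 0.22. At 1 h 5 of 5 were above 0 (median 0.24) and at 24 h 5 of 6 (median 0.21). None was called at any time. Over all tested loci 51.6%, 51.3% and 52.1% had ratios above 0 at 1, 8 and 24 h. In estimated counts 6 of 6 were above 0 at 8 h (median 0.30) and 3 of 6 at 24 h (median 0.07). These loci share the 0 h libraries and were grouped after their values were seen, and nothing is tested by their number.

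**Figure D2:**
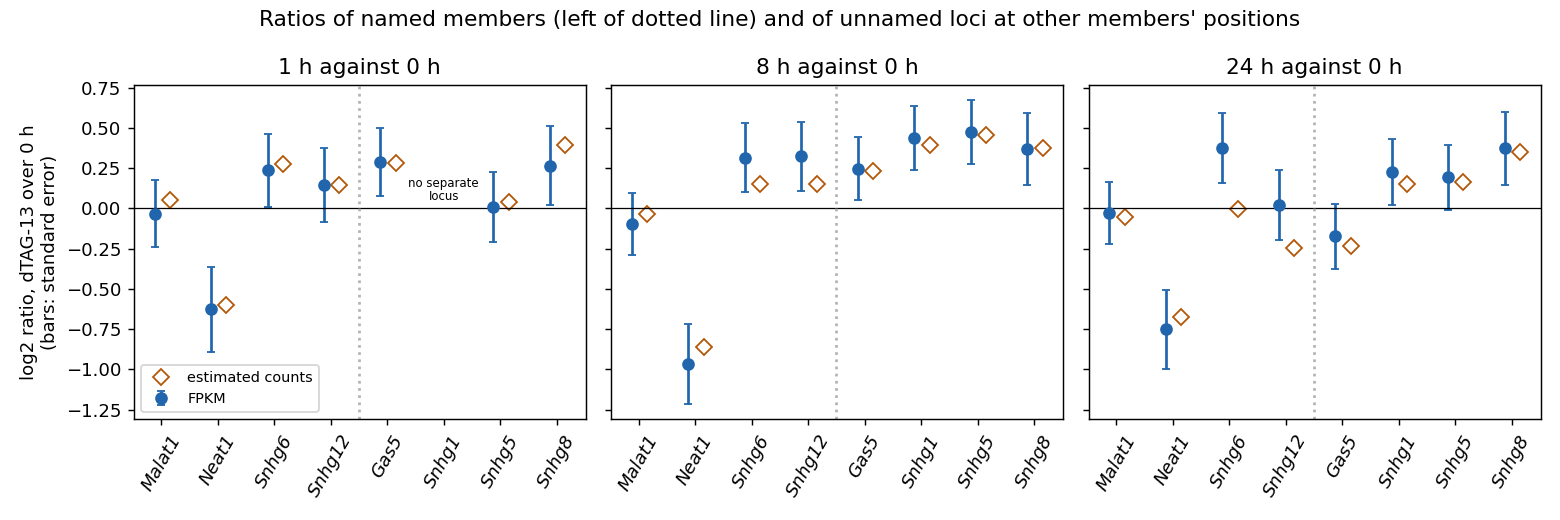
Log2 ratios of dTAG-13 over 0 h (vertical axis) for the 4 named members and for unnamed loci at 4 other members' positions, by FPKM (blue circles, bars of 1 SE) and by estimated counts (orange diamonds). Neat1 lies at -0.63, -0.97 and -0.75 in FPKM, and Snhg6 and Snhg12 have counts below FPKM at 8 and 24 h.

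Other noncoding snoRNA hosts were taken from a list of 14, with loci matched by name or position. Of these, 7 were tested at each time above a floor of 3 estimated counts, 5 by name and 2 by position. None was called. Medians of 0.04, 0.33 and 0.31 (log2) were found at 1, 8 and 24 h, with 5, 6 and 6 of 7 above 0. The highest at 24 h was Snhg18, which went from 3.93 to 6.44 FPKM, a log2 ratio of 0.70 (SE 0.27), with intervals (2.82 to 5.04 and 4.82 to 8.07) that overlapped by 0.221 FPKM. The lowest at 24 h was Snhg11, a neuronal host gene annotated as protein-coding, with -0.21 (SE 0.21). Snhg10, from 19.6 to 43.3 estimated counts at 8 h, had a log2 ratio of 1.09 (SE 0.56).

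The starts of the host genes are shown because a C and T run at the start is what marks 5′ terminal oligopyrimidine transcripts. RefSeq promoters (GRCm38.p6) were available for 7 of the 9 genes. Each line gives 40 bases before and 30 from the start site on, and capitals mark the longest unbroken run of C and T that touches the window from 10 bases before to 15 after the start.
Gas5, chr1:161035126-161035195, plus strand: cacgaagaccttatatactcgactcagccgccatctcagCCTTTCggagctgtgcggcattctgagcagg
Snhg1, chr19:8723447-8723516, plus strand: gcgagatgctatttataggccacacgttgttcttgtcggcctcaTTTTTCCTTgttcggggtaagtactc
Snhg3, chr4:132353657-132353726, minus strand: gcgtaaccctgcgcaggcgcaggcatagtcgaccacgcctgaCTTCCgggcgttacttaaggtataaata
Snhg5, chr9:88522868-88522937, minus strand: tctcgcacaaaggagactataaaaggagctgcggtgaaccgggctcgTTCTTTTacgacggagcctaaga
Snhg8, chr3:123508307-123508376, minus strand: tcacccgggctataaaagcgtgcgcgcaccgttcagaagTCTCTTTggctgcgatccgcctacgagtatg
Snhg12, chr4:132308638-132308707, plus strand: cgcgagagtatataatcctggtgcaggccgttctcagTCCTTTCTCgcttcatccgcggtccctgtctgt
Malat1, chr19:5802643-5802712, minus strand: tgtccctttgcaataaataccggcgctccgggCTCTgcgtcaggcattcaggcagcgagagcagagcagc
The run was 9 bases in Snhg1 and Snhg12, 7 in Snhg5 and Snhg8, 6 in Gas5, 5 in Snhg3 and 4 in Malat1, and the median over 32851 promoters was 5. The marked run included the start site in Gas5, Snhg8 and Snhg12. In Snhg1, Snhg3 and Snhg5 it began at bases 5, 3 and 8, counted with the start site included, so it is not a run at the start. In Malat1 it began 8 bases before the start site and ended ahead of it. A run of at least 8 bases was present in 2 of the 7 and in 15.4% of all promoters. The letters TATAA, read on the gene's strand from 45 to 16 bases before the start, occurred in 3 of the 7 (Snhg5, Snhg8 and Snhg12) and in 3.89% of all promoters. These are matches of letters and show no binding.

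The nuclear RNAs and the hosts differ in architecture. The longest annotated transcripts of Malat1 and Neat1 are single exons of 6983 and 20771 bases, while 3.40% of 11278 tested genes have a single exon in theirs. The longest spliced Gas5 transcript without a retained intron has 10 exons in 665 bases, or 13.5 junctions per kilobase, and that of Snhg1 has 9 exons in 709 bases, or 11.3, against a median of 2.71 over tested genes. The other hosts had 1.72 (Snhg3) to 3.98 (Snhg5) junctions per kilobase. The letters GGACT, the core of the sequence that METTL3 prefers, were counted on the transcript strand. They occurred 9 times in Malat1 (1.29 per kilobase) and 23 times in long Neat1 (1.11 per kilobase), near the median of 1.04 over tested genes. Gas5 and Snhg6 held 1 each, and the longest transcripts of Snhg1, Snhg3, Snhg5, Snhg8 and Snhg12 held 0. A count of letters is not a map of m6A.

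Among genes that encode paraspeckle proteins, none was called at 1, 8 or 24 h. Of 13 tested genes at 8 h, 12 had log2 ratios below 0, with a median of -0.27 beside 0.01 over all tested loci, of which 48.7% were below 0 (48.4% at 1 h and 47.9% at 24 h). At 24 h 11 of 12 were below 0 (median -0.23), and at 1 h 1 of 12 was (median 0.05). Nono and Sfpq, which bind Neat1 directly, had log2 ratios of -0.31 and -0.04 at 8 h and -0.30 and -0.19 at 24 h. The lowest at 24 h were Nudt21 (-0.43), a cleavage factor, and Ewsr1 (-0.40), an RNA-binding protein of the FET family. The highest was Cpsf6, another cleavage factor, at 0.24.

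Nuclear speckle and Malat1-binding genes held 1 call among 10 tested, at 24 h, which cannot be set apart from the 5.48% of all loci called then. Rbmx, which encodes an RNA-binding protein that recognises m6A-dependent sites in transcripts such as Malat1, fell to 25.4 FPKM (20.2 to 30.6) from 76.1 (60.8 to 91.3), a log2 ratio of -1.58 (SE 0.20). At 1 and 8 h its ratios were -0.01 and 0.12. Mettl16, whose protein binds the Malat1 triple helix, had 0.41 at 8 h and 0.64 at 24 h, with overlapping intervals. The list medians were 0.13, -0.09 and -0.10.

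None of 18 genes for snoRNA-binding proteins and their assembly factors was called at 1, 8 or 24 h, with medians of 0.10, -0.05 and -0.07. Fbl, the methyltransferase of box C/D particles, had -0.42 at 24 h. The lowest at 24 h were Pih1d1 (-0.93, SE 0.31) and Ruvbl2 (-0.54, SE 0.25). The highest were Shq1 (0.68, SE 0.22) and Nhp2 (0.33, SE 0.21), closely followed by Znhit3 (0.30, SE 0.31). A difference between the proteins of the 2 snoRNA classes was not tested. Among 13 nonsense-mediated decay genes only Smg8, a subunit of the kinase complex that phosphorylates UPF1, was called, and 1 of 13 cannot be set apart from the 4.43% and 5.48% of all loci called at 8 and 24 h. At 8 h it rose to 25.0 FPKM (20.1 to 29.8) from 13.7 (11.0 to 16.5), a log2 ratio of 0.86 (SE 0.20), and from 13.8 (11.0 to 16.6) to 24.3 (19.5 to 29.1) at 24 h, a ratio of 0.81. The medians of that list were 0.09, -0.04 and -0.11.

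Few coding genes that hold snoRNA genes were called. Of 188 tested at 8 h, 0.532% were called, and of 186 at 24 h 1.08%, beside 4.43% and 5.48% over all tested loci. The calls were Ddx39b (-0.81, at 8 h) and Iars (-0.77) and Rbmx at 24 h, all lower. The medians were 0.04, -0.04 and -0.06. Among the ribosomal protein genes in this list, 27 of 27 were above 0 at 1 h, with a median of 0.13, beside 51.6% of all loci. At 8 h 13 of 27 were above 0 (median -0.01) and at 24 h 9 of 27 (median -0.06). None was called at any of these times, and the highest ratio at 1 h was 0.32 (Rps3, SE 0.21). The lean at 1 h was not particular to these genes. Ratios above 0 were also found then for 14 of 18 snoRNA-binding and assembly genes and 11 of 12 paraspeckle genes, but for 5 of 15 other long noncoding RNAs. All these ratios share the same pooled columns, and nothing is tested by their number.

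**Figure D3:**
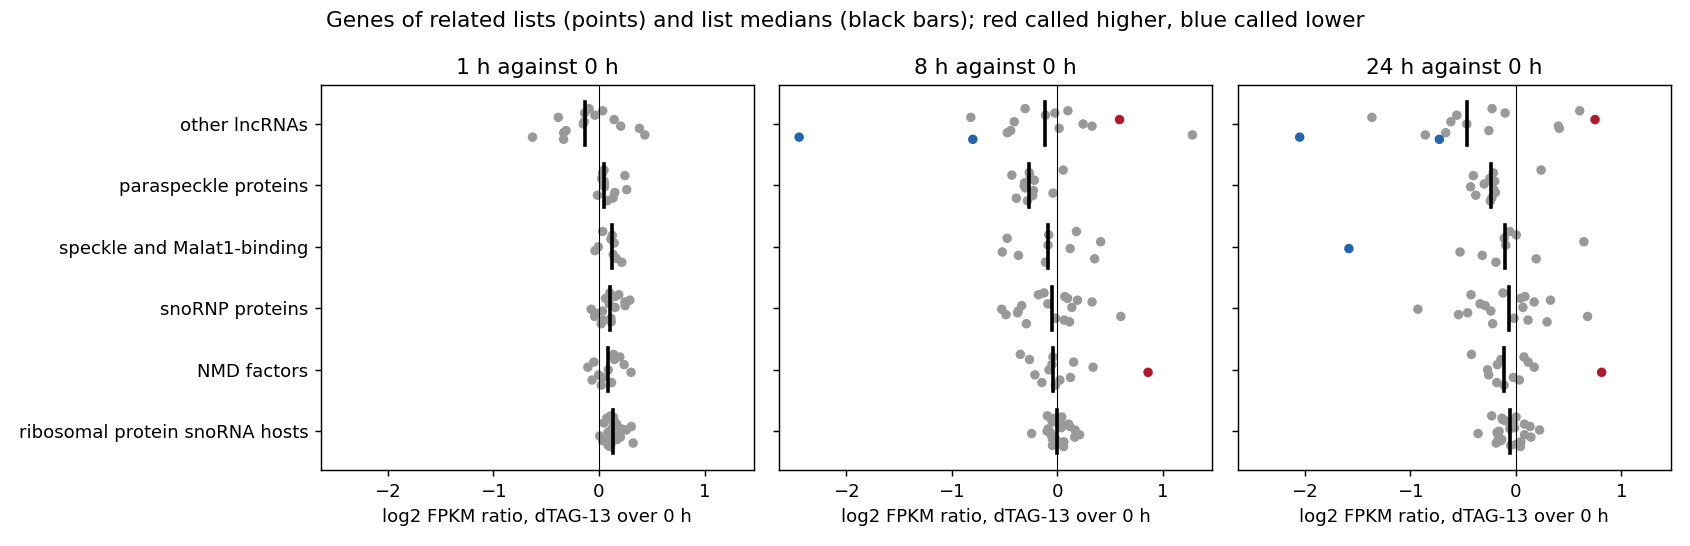
Log2 FPKM ratios (horizontal axis) of single genes in 6 related lists at 1, 8 and 24 h, with black bars for list medians, red points for genes called higher and blue for those called lower. The paraspeckle list has a median of -0.27 at 8 h without a call. The lncRNA list holds lower calls at 8 and 24 h, and its only gene called higher is Kcnq1ot1.

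Other long noncoding RNAs held lower calls and, for 1 gene in FPKM only, higher calls. Of 28 listed, 15 were tested at each time, and 0, 3 and 3 were called at 1, 8 and 24 h, 1 higher and 2 lower at both later times. Over all loci 3.49% and 3.83% were called higher and 0.940% and 1.65% lower at 8 and 24 h. Trp53cor1, a noncoding RNA next to Cdkn1a that p53 induces, fell from 231 to 32.1 estimated counts at 8 h, a log2 ratio in FPKM of -2.44 (SE 0.41), and had -2.05 at 24 h. Its FPKM were 1.77 untreated and 0.244 treated in the 8 h table, and 1.78 and 0.355 in the 24 h table. Trp53cor1 was thus tested at these times only through its untreated values, in the condition where it was higher. Tug1 had 35.8 FPKM (27.7 to 43.9) untreated and fell to 20.5 (15.2 to 25.8) by 8 h, a ratio of -0.80 (SE 0.24), and had -0.72 at 24 h. Kcnq1ot1, an imprinted antisense RNA, was called higher in FPKM (0.59 and 0.75), while its estimated counts gave 0.19 and 0.26, under 1.5-fold. At 0 h Kcnq1ot1 had 0.968 and 0.971 FPKM in the 8 and 24 h tables, under the 1 FPKM minimum. It was tested at these times only through its treated values of 1.51 and 1.70 FPKM. The list medians were -0.14, -0.11 and -0.46.

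Over all named lincRNA genes tested, 2.33%, 4.57% and 6.32% were called at 1, 8 and 24 h, beside 0.402%, 4.43% and 5.48% of all loci. The calls at 1 h were Bc1 (0.534 to 0 estimated counts), Gm30085 (0.463 to 0), Gm33682 (0 to 0.997) and Gm38079 (9.83 to 6.51). That share thus rests on loci with very few counts and shows no excess of lincRNA changes. Calls at 24 h included Bc1, Gm30085, Gm32950 and 1810063I02Rik, with at most 1.42 estimated counts in either condition. At 8 h, 7 of 175 lincRNA genes were called lower, Neat1 among them, and 1 higher. Gm30085 and Gm32950, which are 2 of those 7, had under 1 estimated count in both conditions. The median ratios were -0.06, 0.06 and -0.03. Those 7 lower calls of 175 stand beside 0.940% of all loci called lower at 8 h.

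**Figure D4:**
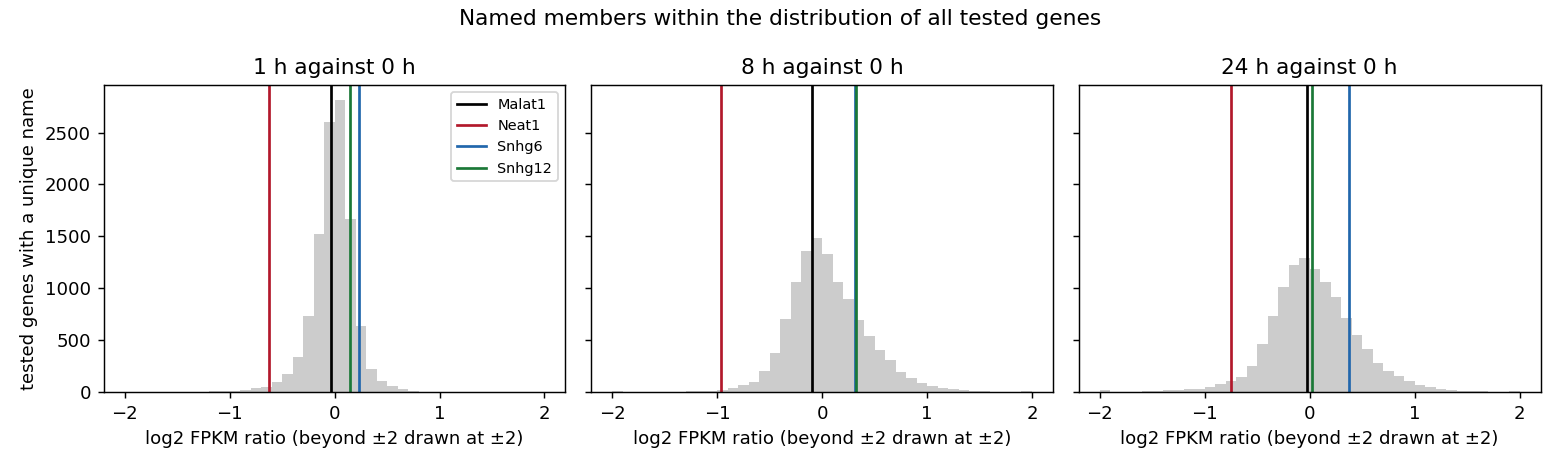
Histograms of log2 FPKM ratios (horizontal axis) of all tested genes with a unique name (vertical axis, number of genes), with lines for the 4 named members. Neat1 stands at the 1.74th percentile of tested loci at 8 h, and Malat1 lies near the centre at each time.

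Genes with the pattern most like that of Neat1 were found by Euclidean distance over the 3 log2 ratios, among 8451 named genes of at least 5 FPKM at 0 h. The nearest was Epha7 (chromosome 4, 28813131 to 28967499), an ephrin receptor, with ratios of -0.54, -0.96 and -0.74 and a distance of 0.0889. The next was 2210016L21Rik, with -0.43, -1.02 and -0.81 and a distance of 0.216. The median distance of all candidates was 1.38.

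Levels of cell type markers also differed between conditions. The 8 retinal progenitor markers summed to 527 FPKM untreated and 690 in the 8 h organoids, and to 528 and 753 in the 24 h table, with 1 and 3 of 8 called higher, beside 3.49% and 3.83% of all loci. The 5 pigment epithelium markers summed to 60.2 FPKM untreated and 97.3 treated in the 24 h table, and to 77.1 after 8 h, with none called and the highest log2 ratio in Pmel (1.06 at 24 h). The sum of 5 pluripotency markers went from 284 to 255 and from 285 to 188, with Dppa5a called lower at 24 h (-0.88). Without Dppa5a the other 4 summed to 85.0 FPKM untreated and 78.8 at 24 h, so most of the difference in the sum lay in that gene. The part of these markers in the Neat1 value was not tested. In bulk RNA, fewer cells of a type and less RNA per cell cannot be told apart.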

How the data were processed

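Poly(A) RNA from 8 organoid samples in 4 groups of 2 was sequenced, per the labels. The authors deposited 3 pairs of tables (0 h with 1, 8 or 24 h): FPKM values between deposited bounds, and estimated counts beside variances, each as 1 column per condition, per the file headers. Cufflinks 2.2.1, Cuffdiff and mm10 are named in the submitters' processing notes. The aligner, annotation and strand setting are not given in the sources used here, nor is the level of the intervals.

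Ratios are log2 of FPKM + 0.1 over the same at 0 h, within a table; the added 0.1 makes the change of a low gene look smaller. Calls were made over all loci with status OK and at least 1 FPKM in 1 condition, without p-values. Count ratios used 3 added counts, and their intervals were 2 deposited standard deviations to each side. Names found at more than 1 locus were left out of lists. Loci without a name (4822, 4904 and 4904) were matched to genes by GENCODE M21 position, a step added after the tables were seen. Named genes were all members, Mettl3, called list genes or else the 2 highest and 2 lowest at 24 h, and the 2 genes nearest in pattern to each called member; other list genes named were chosen after their values were seen. The members and lists were chosen with earlier results of these data known. Python 3.11.15 with pandas 2.3.3 was used.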

Additional observations from a re-analysis of the deposited data

How the results depend on the processing

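No paired analysis was possible because the tables hold 1 column per condition, and for the same reason no replicate could be left out. The 1.5-fold criterion without the intervals called 1 member at 1 h and 1 at 24 h (Neat1 at both), with 707, 1896 and 2371 of all loci at 1, 8 and 24 h, against 55, 612 and 762. A 2-fold criterion called 0 members at 8 h, and 217 and 297 loci at 8 and 24 h. Neat1 is under 5 FPKM, so a 5 FPKM minimum left 0 members called at 8 h, and 30 loci at 1 h. Without a minimum 95 loci were called at 1 h. Under the 3 alternatives that can alter a ratio (1 FPKM added, estimated counts, centring on the median), 34 of 36 values of the 4 named members moved by less than 1 SE, as did 33 of 33 of the loci at other members' positions. The exceptions were the count ratios of Snhg6 (-0.01) and Snhg12 (-0.25) at 24 h. Much of this tally was fixed in advance. Centring shifted all ratios by only 0.01, 0.01 and 0.02 at 1, 8 and 24 h. With 1 FPKM added, abundant loci barely change (Snhg6 at 24 h from 0.38 to 0.37), while Neat1 at 8 h went from -0.97 to -0.73. For loci other than Neat1, only the estimated counts could have moved a ratio by 1 SE. Under the same 3 alternatives and the 2 alternative filters, 3 of 174 list medians moved by more than the median SE of their genes. The deposited intervals and variances are the only errors here, and the separate replicates were not used.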
